A study of Mus musculus with 6 samples.

Results

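The genes described are 8 transcription factors that give the segments of the nephron and the collecting duct their identity: Hnf4a, Hnf4g, Pax2, Pax8, Lhx1, Tfap2b, Irx1 and Elf5. They were taken by symbol from a table of read counts for 25031 genes, and each symbol had 1 row. The samples were kidneys from male wild-type mice of the C57BL/6 strain, which were 7 to 8 weeks old. In every animal the blood flow of both kidneys was stopped for 23 minutes and restored, at a body temperature of 37 °C. Of the 6 libraries, 3 came from mice given saline (vehicle) and 3 from mice given 5 mg/kg of (+)CePPy by vein straight after the injury. (+)CePPy, called CePPy here, is a positively charged polypyrrole nanoparticle doped with cerium. When the kidneys were collected is not given in the sources, and uninjured kidneys were not analysed here.

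Nephron epithelium is made during development from mesenchyme in which Pax2, Pax8 and Lhx1 are switched on, and the segments later keep their own factors. HNF4A and HNF4G are nuclear receptors of the proximal tubule, where HNF4A drives genes of transport and gluconeogenesis. Irx1 belongs to the Iroquois genes that pattern the middle of the nephron, including the loop of Henle. Tfap2b, of the AP-2 family, marks the distal nephron, and Elf5, an ETS factor, the principal cells of the collecting duct. In a whole kidney, fewer cells of a type and less RNA per cell cannot be told apart.

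No member passed the test of CePPy against vehicle over all genes. With edgeR's quasi-likelihood test and a Benjamini-Hochberg adjusted p under 0.05, 0 of 8 members were called, and 0.00649% of the 15416 genes tested were (1 gene). DESeq2 also called 0 members, against 6.66% of all genes tested (3.43% with a higher value). An unadjusted edgeR p under 0.05 was reached by 1 member, Irx1, where 19.0% of all genes reached it. In 1 member, Hnf4g, all CePPy libraries lay above all vehicle libraries, as they did for 12.3% of all genes tested, and the groups did not overlap in either direction for 26.3%. Both shares were near or below the background. Fitted values were higher after CePPy for 7 of 8 members, against 50.5% of all genes, with a median log2 fold change of 0.26 against 0.00 over all genes tested. The number with an unadjusted p under 0.05 was 3 without CePPy 2, 2 without vehicle 2 and 0 without vehicle 1.

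**Figure D1:**
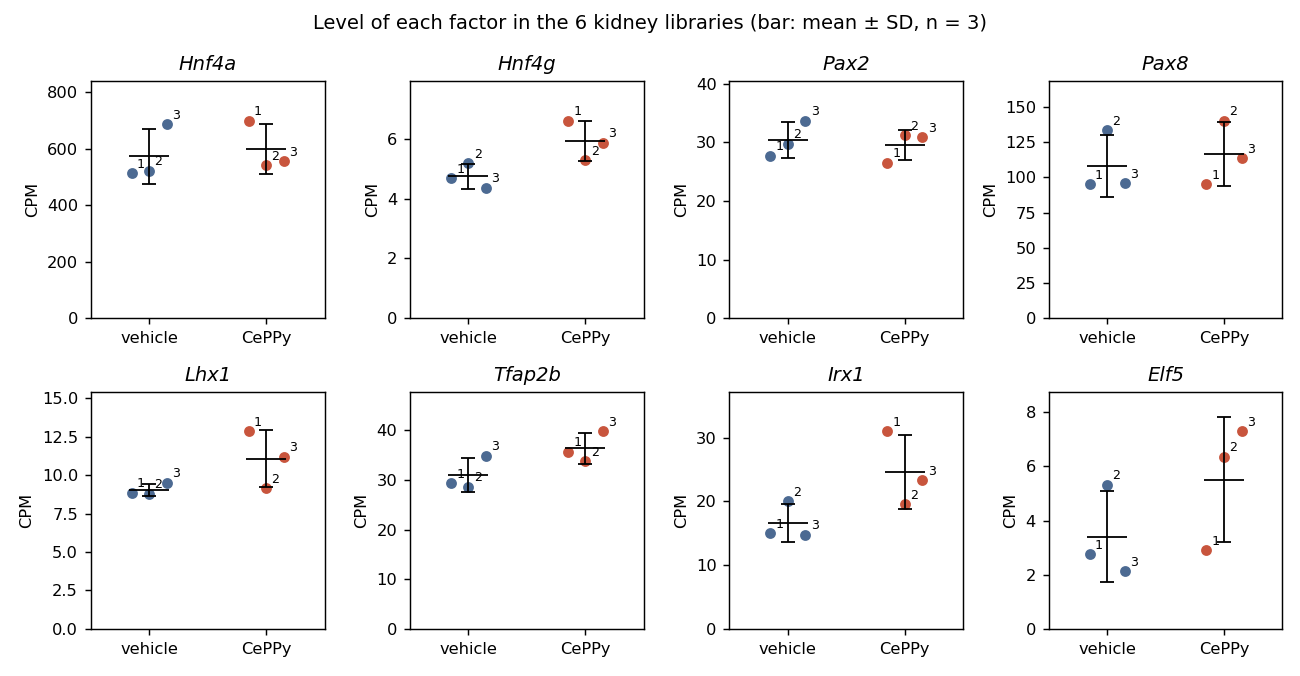
Level of each member in CPM in the 3 vehicle and 3 CePPy libraries, with replicate numbers beside the points and black bars for mean ± SD. The groups overlap for every member except Hnf4g.

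Total counts per library ran from 29762157 to 37415213, and levels are given as CPM, counts scaled to library size, in which 1 count is worth 0.0267 to 0.0336. All 18 proximal tubule, 12 thick ascending limb, 12 distal and connecting tubule and 10 principal cell markers were detected at levels that could be tested. So were all 10 endothelial, 10 leukocyte and 8 urothelium markers, so being testable does not by itself bear out the tissue label. Umod, a thick ascending limb marker, was abundant, at 2486 to 5406 CPM over the libraries. CePPy libraries differed among themselves in the tubule markers. Against the vehicle mean, the proximal tubule list lay 1.28, 0.16 and 0.68 log2 units higher in CePPy 1, 2 and 3, and the list of 15 tubular injury markers lay at -1.12, -0.16 and -0.35. In both of these lists CePPy 1 stood farthest from vehicle and CePPy 2 nearest. This order was not general, as the principal cell list lay at 0.34, 0.36 and 0.67 in CePPy 1, 2 and 3. Whether the libraries are from separate animals is not stated in the labels, so p-values measure the spread between libraries, which may be technical. The number of genes that edgeR called over the whole table was 811 when CePPy 2 was left out, 6 when vehicle 2 was, and 2 when CePPy 1 was. It was 0 when vehicle 1, vehicle 3 or CePPy 3 was left out.

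Hnf4a lies on chromosome 2 from 163506808 to 163572910, plus strand, of GRCm38. Its levels were 514, 523 and 687 CPM in vehicle 1, 2 and 3 and 700, 542 and 556 CPM in CePPy 1, 2 and 3. Vehicle 3 and CePPy 1 stood apart from the other 4 libraries, 1 in each group, and the groups overlapped. The means were 574 ± 97.4 and 599.6 ± 87.6 CPM (SD, n = 3 in each group), giving a log2 fold change of 0.06 (SE 0.15, 95% interval -0.29 to 0.41, edgeR adjusted p = 0.852). The interval holds changes of either sign, and the value was -0.06 without CePPy 1 and 0.21 without vehicle 3. Hnf4a reads may include those of the antisense gene Hnf4aos, which overlaps it and is not counted separately in the table, since the use of strand is not given. The same limit holds for Pax2, overlapped by the antisense genes Gm20395 and 1700039E22Rik, and for Pax8, overlapped by Gm13415 on the other strand.

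Hnf4a has more than 1 promoter, and its gene count adds the transcripts of all of them. RefSeq lists 2 starts for the gene in GRCm38.p6, 40298 bases apart, and adult liver and kidney are known to use mainly the downstream promoter. The 250 bases before each start are shown because the counts cannot separate the transcripts that begin there.
upstream start, chr2:163506607-163506856, plus strand: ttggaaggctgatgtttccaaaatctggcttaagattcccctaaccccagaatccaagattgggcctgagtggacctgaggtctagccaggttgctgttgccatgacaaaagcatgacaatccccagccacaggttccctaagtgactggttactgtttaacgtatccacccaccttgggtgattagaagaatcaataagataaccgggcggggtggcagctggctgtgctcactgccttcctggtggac
downstream start, chr2:163546905-163547154, plus strand: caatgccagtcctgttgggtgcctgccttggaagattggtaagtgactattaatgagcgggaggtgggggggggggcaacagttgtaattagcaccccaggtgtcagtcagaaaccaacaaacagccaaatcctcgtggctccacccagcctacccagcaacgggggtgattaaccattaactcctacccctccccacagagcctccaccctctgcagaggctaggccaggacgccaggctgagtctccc
The bases G and C made up 51.2% of the upstream and 57.6% of the downstream stretch. The RefSeq table has 10 such windows for 6 of the members (Hnf4a, Pax2, Pax8, Lhx1, Tfap2b and Elf5).

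Hnf4g, the paralog of Hnf4a (chromosome 3, 3508030 to 3658052, plus strand), was a far scarcer transcript. It measured 4.68, 5.18 and 4.37 CPM in vehicle and 6.61, 5.29 and 5.87 in CePPy. Every CePPy library lay above every vehicle library, but CePPy 2 exceeded vehicle 2 by little. The log2 fold change was 0.32 (SE 0.17, 95% interval -0.08 to 0.72, edgeR adjusted p = 0.348). Per kilobase of exon, Hnf4a exceeded Hnf4g by 59.8, 55.0 and 85.7 times in vehicle and by 57.7, 55.8 and 51.6 times in CePPy. These ratios overlapped between groups, with vehicle 3 the highest (exact two-sided permutation p = 0.3, where 3 against 3 libraries cannot go below 0.1). It was 1 of 8 ratios between factors that were computed. The groups overlapped in all 8, and the lowest p of the 8, adjusted by Benjamini-Hochberg over them, was 0.457.

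The paired-box factors Pax2 and Pax8 act together in kidney formation and remain on in adult tubules and collecting ducts. Pax8 (chromosome 2, 24420560 to 24475599, minus strand) measured 95.1, 133 and 95.8 CPM in vehicle and 95.3, 140 and 114 in CePPy. Vehicle 2 and CePPy 2 were the highest of their groups, and the spread within each group was larger than the difference between them. The log2 fold change was 0.11 (SE 0.18, 95% interval -0.30 to 0.52, edgeR adjusted p = 0.774), and it was -0.05 without CePPy 2. Pax2 (chromosome 19, 44756045 to 44837871, plus strand) was the only member with a lower fitted value. Its levels were 27.7, 29.7 and 33.7 CPM in vehicle and 26.5, 31.2 and 30.8 in CePPy, and the groups overlapped throughout. The log2 fold change was -0.04 (SE 0.11, 95% interval -0.29 to 0.21, edgeR adjusted p = 0.871). It was 0.04 without CePPy 1 and 0.04 without vehicle 3. Per kilobase, Pax8 exceeded Pax2 by 3.20 ± 0.744 times in vehicle and 3.50 ± 0.441 times in CePPy (SD, n = 3 per group; exact two-sided permutation p = 0.4).

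Irx1 (chromosome 13, 71957921 to 71963723, minus strand) had the lowest p of the members. It measured 15.01, 20.1 and 14.8 CPM in vehicle and 31.0, 19.5 and 23.3 in CePPy. CePPy 1 was the highest library, while CePPy 2 lay just below vehicle 2, so that the groups overlapped. The means were 16.6 ± 2.99 and 24.6 ± 5.84 CPM (SD, n = 3 in each group), giving a log2 fold change of 0.57 (SE 0.19, 95% interval 0.12 to 1.01, edgeR unadjusted p = 0.0192, adjusted p = 0.184). By DESeq2 the adjusted p was 0.0749. In the p order of all genes tested, Irx1 stood at the 10.4 percentile. Without CePPy 1 its log2 fold change was 0.37, and without CePPy 2 it was 0.71, with edgeR adjusted p of 0.301 and 0.073.

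Lhx1 (chromosome 11, 84518284 to 84525535, minus strand), a LIM homeobox gene needed to form the nephron, measured 8.85, 8.80 and 9.51 CPM in vehicle and 12.9, 9.17 and 11.2 in CePPy. The vehicle libraries lay close together, and CePPy 2 lay among them while CePPy 1 and 3 lay above. The log2 fold change was 0.29 (SE 0.15, 95% interval -0.06 to 0.64, edgeR adjusted p = 0.341). It was 0.17 without CePPy 1. As with Irx1, the order of the CePPy libraries was 1, 3, 2, the same as that of the thick ascending limb markers, which lay 1.42, 0.44 and 0.88 log2 units above the vehicle mean in CePPy 1, 2 and 3. The markers of the proximal tubule (1.28, 0.16 and 0.68), of the distal and connecting tubule (1.05, 0.13 and 0.57) and of intercalated cells (0.64, 0.24 and 0.33) had this order too. The part of cell composition in this order was not tested.

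Tfap2b (chromosome 1, 19208914 to 19238576, plus strand) measured 29.4, 28.7 and 34.9 CPM in vehicle and 35.7, 33.8 and 39.8 in CePPy. Vehicle 3 lay above CePPy 2, and the other libraries were separated by group. The log2 fold change was 0.23 (SE 0.11, 95% interval -0.02 to 0.49, edgeR adjusted p = 0.29). Its paralog Tfap2a measured between 3.65 and 4.53 CPM in all libraries (log2 change 0.06 ± 0.18 SE, edgeR adjusted p = 0.877).

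Elf5 (chromosome 2, 103411688 to 103450989, plus strand) had the lowest level per kilobase of exon and the widest relative spread of the members. Its counts were 99, 181 and 72 in vehicle and 103, 239 and 219 in CePPy, or 2.76, 5.33 and 2.14 CPM and 2.90, 6.36 and 7.30 CPM. Vehicle 2 was high and CePPy 1 low for their groups, so the groups overlapped. The coefficient of variation was 49.6% in vehicle and 42.0% in CePPy, against 4.35% to 23.7% for the other 7 members. The log2 fold change of 0.69 was the largest of the 8, with the largest error (SE 0.43, 95% interval -0.30 to 1.69, edgeR adjusted p = 0.412). It was 1.17 without vehicle 2, 1.004 without CePPy 1, 0.45 without CePPy 3 and 0.45 without vehicle 3.

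Elf5 was set beside all markers of principal cells and of urothelium, the lining of the renal pelvis. Vehicle 2 was the highest vehicle library and CePPy 1 the lowest CePPy library for Elf5, and the same held for 2 of 10 principal cell markers (Aqp4 and Fxyd4) and 3 of 8 urothelium markers (Sprr1a, Upk2 and Trp63). Taken apart, CePPy 1 was lowest for 3 of 10 principal cell markers and for 8 of 8 urothelium markers. Vehicle 2 was highest for 5 of 10 and 3 of 8. Aqp4, the basolateral water channel of principal cells, measured 8.99, 15.8 and 4.72 CPM in vehicle and 9.003, 27.4 and 32.0 in CePPy. Other principal cell markers did not have this order: Avpr2, the vasopressin receptor gene, measured 2.14, 3.47 and 2.53 CPM in vehicle and 5.94, 4.57 and 7.80 in CePPy, with CePPy 2 the lowest of its group. The principal cell list lay at 0.34, 0.36 and 0.67 log2 units against the vehicle mean in CePPy 1, 2 and 3, so it was above that mean in CePPy 1, where Elf5 was low. The urothelium list lay at 0.81, 0.67 and -1.48 in vehicle and at -0.58, 0.93 and 1.86 in CePPy, so it was highest of the vehicle libraries in vehicle 1, where Elf5 was low. The summed level of the 8 urothelium markers ran from 54.0 to 123 CPM in vehicle and from 68.1 to 173 CPM in CePPy, and no marker was at 0 in all libraries. Most of that sum was Sprr1a in every library, at 62.2, 99.7 and 49.0 CPM in vehicle and 60.9, 132 and 123 in CePPy. The uroplakin genes Upk1a and Upk2 reached at most 2.90 and 1.80 CPM, so the sum does not measure the amount of urothelium. The part of these other cells in the Elf5 values was not tested.

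**Figure D2:**
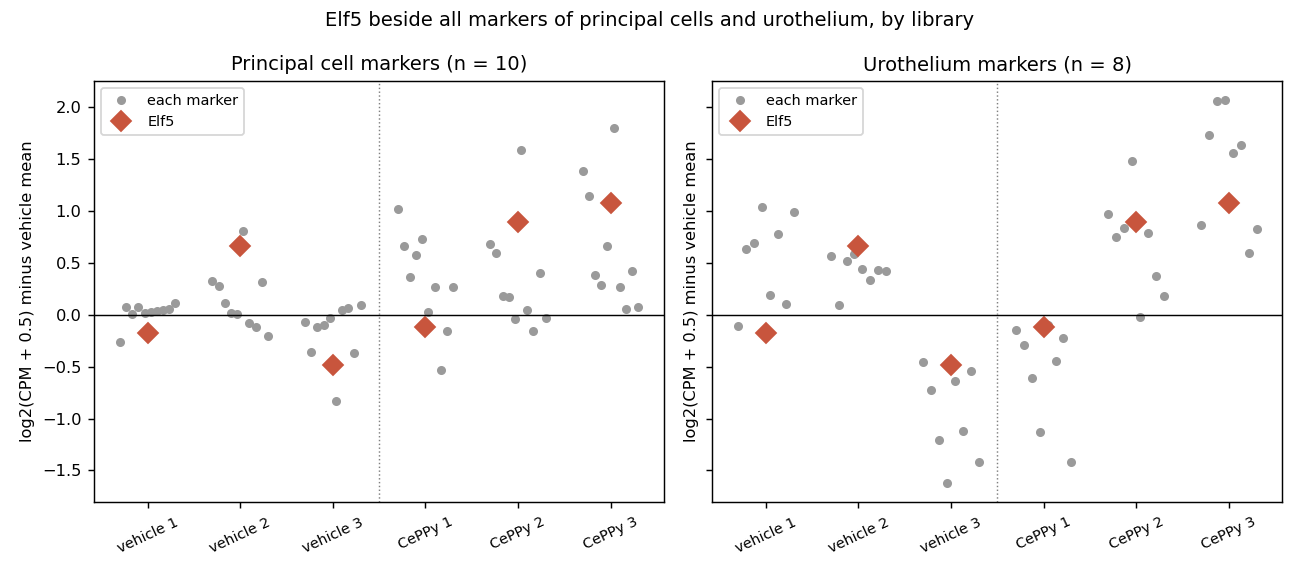
Log2(CPM + 0.5) minus its vehicle mean in each library for Elf5 (diamonds) and for each of the 10 principal cell markers (left) and 8 urothelium markers (right, grey points), the dotted line parting vehicle from CePPy. In CePPy 1, Elf5 and all 8 urothelium markers are below 0 while 8 of 10 principal cell markers are above 0, and in vehicle 1, 7 of 8 urothelium markers are above 0 while Elf5 is below.

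Compared per length, Hnf4a was by far the highest of the 8 in every library. Its level was 119 ± 20.2 CPM per kilobase of exon in vehicle and 124 ± 18.1 in CePPy (SD, n = 3 per group). Pax8 followed at 17.8 ± 3.62 and 19.2 ± 3.74. Irx1 stood at 6.35 ± 1.14 and 9.40 ± 2.23, Pax2 at 5.61 ± 0.565 and 5.46 ± 0.486, and Tfap2b at 4.89 ± 0.536 and 5.75 ± 0.488. In vehicle the ranges of Irx1 and Pax2 overlapped, as did those of Pax2 and Tfap2b, so their order was within the spread. Lhx1 at 2.22 ± 0.0967 and 2.72 ± 0.453 and Hnf4g at 1.80 ± 0.156 and 2.25 ± 0.252 came next, and Elf5 was last at 0.580 ± 0.288 and 0.939 ± 0.394. In CePPy, Lhx1 and Hnf4g overlapped, and Tfap2b stood above Pax2 by less than their spread. With the longest transcript as the length, Pax2 at 6.78 stood above Tfap2b at 6.21 in CePPy.

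**Figure D3:**
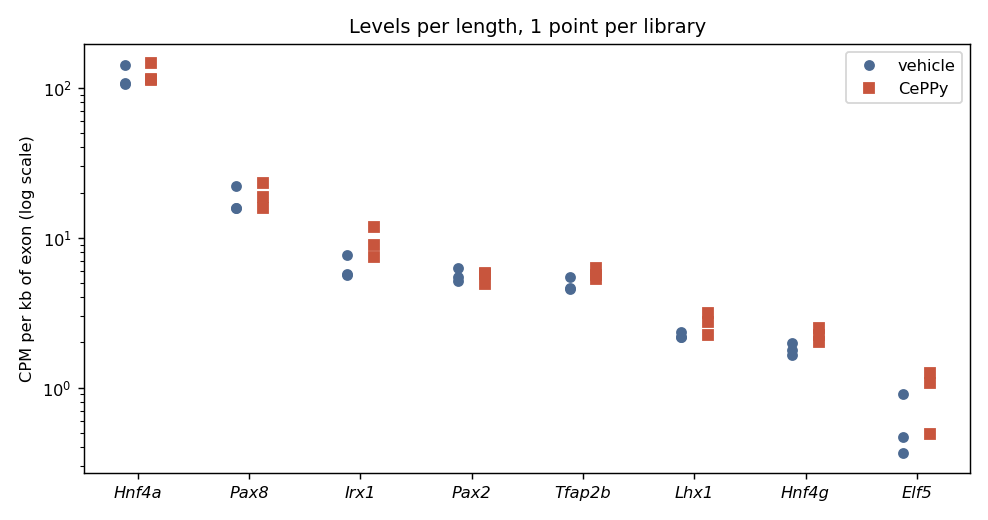
Levels per length of the 8 members, in CPM per kilobase of exon on a log axis, with 1 point per library (circles vehicle, squares CePPy). Hnf4a lies between 106 and 145 in all 6 libraries and Elf5 between 0.364 and 1.24.

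The factors were next set against the marker genes of the segment assigned to each, in the same library. The mean log2 level of the markers was subtracted from that of the factor. Hnf4a stood 1.18, 1.22 and 1.57 log2 units above the proximal tubule markers in vehicle, and 0.34, 1.10 and 0.60 above them in CePPy. Each CePPy value was below each vehicle value, a difference of -0.64. The markers lay higher after CePPy while the means of Hnf4a differed by less than its spread. Any gene with little change falls against markers that lie higher, so these differences, here and below, need not be particular to the factors. The share of all genes that would separate from the same markers was not computed. Lhx1 against the thick ascending limb markers differed by -0.64 in the same way, at -1.63, -1.64 and -1.62 in vehicle and -2.54, -2.05 and -2.20 in CePPy. Pax2 against principal cell markers differed by -0.50, at 0.11, 0.08 and 0.59 in vehicle and -0.27, -0.05 and -0.38 in CePPy. With the median level of the markers in place of their mean, the Pax2 difference was -0.155 and its groups overlapped (exact two-sided permutation p = 0.3). That of Lhx1 was then -1.04 without overlap. This median was taken over the log2 levels in each library, so it follows the markers of middle level and is not the median change of a list. With the mean of the markers, the exact two-sided permutation p was 0.1 for Hnf4a, Lhx1 and Pax2. It was the smallest that 3 against 3 libraries can give, and 0.267 after Benjamini-Hochberg adjustment over the 8 such ratios.

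With the mean of the markers, the other ratios overlapped between the groups. The differences of CePPy from vehicle were -0.81 for Pax8 and -0.36 for Irx1 against thick ascending limb markers. They were -0.39 for Hnf4g against proximal tubule markers and -0.35 for Tfap2b against distal and connecting tubule markers. The mean of the distal list includes Pvalb, which was near the floor in vehicle. Pvalb measured 0.06, 0.32 and 0.15 CPM in vehicle and 7.43, 0.32 and 2.93 in CePPy. Its log2 change was 4.32 ± 1.10 SE, where the median of the list was 0.37, and the Tfap2b difference without Pvalb was not computed. Elf5 was the only member with a positive value, 0.23 against principal cell markers. The exact two-sided permutation p was between 0.2 and 0.9 for these 5. With the median level of the markers, Pax8 (-1.21), Irx1 (-0.77) and Hnf4g (-0.57) did not overlap either (exact two-sided permutation p = 0.1 for each), and Elf5 stood at 0.57. As above, that median follows the markers of middle level. The median log2 fold change was 0.77 for the thick ascending limb list and 0.70 for the proximal tubule list. With the mean of the markers and without CePPy 1, the differences were -0.41 for Pax8, -0.19 for Hnf4g and -0.10 for Tfap2b. Without CePPy 2 they were -0.59 for Hnf4g and -0.52 for Tfap2b. That of Irx1 was -0.20 without vehicle 2, and with a library left out that of Elf5 ranged from 0.03 to 0.58. Pax2 and Pax8 are made in several segments, so that 1 marker list covers only part of their cells. Whether Lhx1 and Irx1 came mainly from the thick ascending limb, the segment assigned to them, was not tested.

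**Figure D4:**
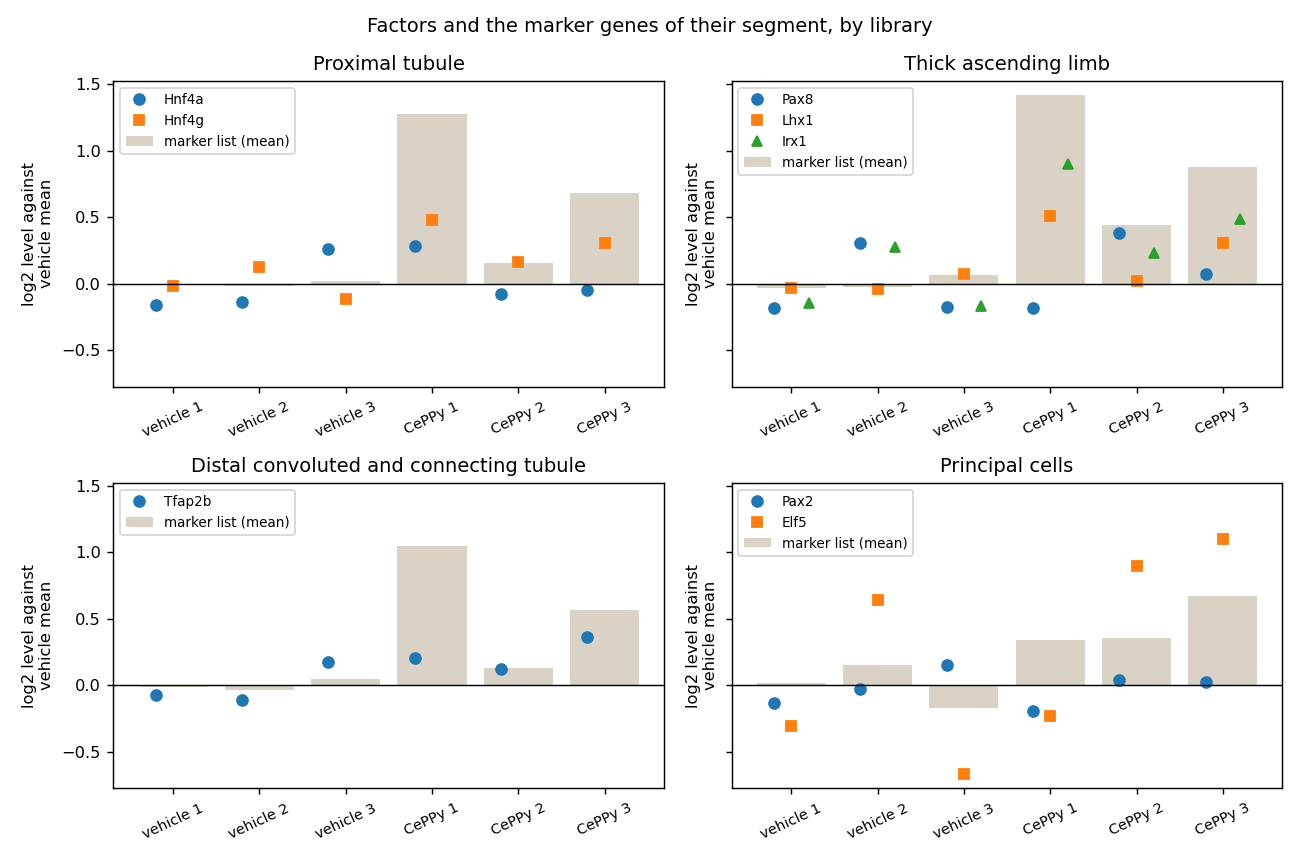
Log2 level against the vehicle mean in each library for the members (points) and the mean of the marker list of the segment assigned to them (bars). In CePPy 1 the bars reach 1.28, 1.42 and 1.05 for proximal tubule, thick ascending limb and distal tubule, and every member of those panels lies below its bar. The distal bar includes Pvalb, at 7.43 CPM in CePPy 1 and 0.06 to 0.32 CPM in vehicle.

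Genes listed as downstream of HNF4A in liver and proximal tubule had higher fitted values after CePPy in 18 of 19 cases, with a median log2 fold change of 0.43, which was 0.27 without CePPy 1. By edgeR 0 passed over all genes, 9 had an unadjusted p under 0.05 with a higher value (9.65% of all genes tested did), and DESeq2 called 3 higher. Slc34a1, the phosphate cotransporter, measured 1036, 1091 and 1160 CPM in vehicle and 3991, 1531 and 2270 in CePPy (log2 change 1.25 ± 0.31 SE, edgeR adjusted p = 0.121). Slc22a8, the organic anion transporter OAT3, measured 127, 136 and 130 CPM in vehicle and 339, 159 and 291 in CePPy (log2 change 1.01 ± 0.24 SE, edgeR adjusted p = 0.117). Ttr, the transthyretin gene, measured 8.74, 13.6 and 13.5 CPM in vehicle and 36.7, 15.4 and 24.1 in CePPy (log2 change 1.09 ± 0.31 SE, edgeR adjusted p = 0.145). For all 3, CePPy 1 was highest and CePPy 2 lowest among CePPy libraries, and the groups did not overlap. They were taken for their low p. Over the list, the CePPy libraries lay wholly above vehicle for 6 of 19 genes (12.3% of all genes tested) and wholly below for 1. The list shares Slc34a1, Slc5a2, Cubn and Lrp2 with the proximal tubule markers.

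Of 8 genes placed downstream of Pax2 and Pax8 in development or in the adult collecting duct, 7 had higher fitted values (median 0.59), and edgeR called 0 over all genes. The median was 0.78 without CePPy 1 and 0.43 without CePPy 3. This list shares Aqp2, Aqp3 and Aqp4 with the principal cell markers, and Gata3 with the other transcription factors described below. Aqp2, the vasopressin-regulated water channel, measured 127, 145 and 93.3 CPM in vehicle and 190, 181 and 265 in CePPy (log2 change 0.80 ± 0.20 SE, edgeR adjusted p = 0.118). DESeq2 called Aqp2 higher (adjusted p = 0.0021). The basolateral water channel gene Aqp3 measured 41.6, 41.3 and 40.1 CPM in vehicle and 68.3, 40.0 and 65.1 in CePPy (log2 change 0.49 ± 0.18 SE, edgeR adjusted p = 0.208).

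Among 19 other transcription factors of nephron and collecting duct, 14 had higher fitted values (median 0.15), and edgeR called 0 over all genes. The 3 of lowest p were Esrrb, Pou3f3 and Sim2. Esrrb, an orphan nuclear receptor, measured 5.54, 7.18 and 6.80 CPM in vehicle and 20.5, 9.09 and 14.7 in CePPy (log2 change 1.18 ± 0.28 SE, edgeR adjusted p = 0.117). Pou3f3, the POU factor Brn1 needed for the loop, measured 59.1, 58.5 and 52.8 CPM in vehicle and 75.5, 64.7 and 78.1 in CePPy (log2 change 0.36 ± 0.09 SE, edgeR adjusted p = 0.131). Sim2 measured 7.49, 9.004 and 6.39 CPM in vehicle and 10.9, 10.1 and 11.97 in CePPy (log2 change 0.52 ± 0.16 SE, edgeR adjusted p = 0.162). In all 3, which were taken for their low p, every CePPy library lay above every vehicle library, and DESeq2 called Esrrb and Pou3f3 higher. Over the list, the first held for 5 of 19 genes (12.3% of all genes tested). DESeq2 called 2 of 19 higher (3.43% of all genes tested). The adjusted p by DESeq2 was 0.00196 for Esrrb, 0.035 for Pou3f3 and 0.0627 for Sim2. The next lowest p of the list was that of Tfcp2l1, a factor of the collecting duct, at 225, 202 and 228 CPM in vehicle and 258, 239.7 and 300.2 in CePPy (log2 change 0.28 ± 0.11 SE, edgeR adjusted p = 0.211), also without overlap.

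Of 28 genes in the families of the members, 12 passed the filter on low counts, and 6 of these had higher and 6 lower fitted values. The one with an unadjusted p under 0.05 was Irx2, a neighbour of Irx1 in the same Iroquois cluster. It measured 9.91, 13.4 and 11.6 CPM in vehicle and 16.6, 12.6 and 15.8 in CePPy (log2 change 0.37 ± 0.16 SE, edgeR adjusted p = 0.26). Vehicle 2 was highest and CePPy 2 lowest in their groups, as for Irx1. The ratio of Irx1 to Irx2 per length was 1.79 ± 0.167 in vehicle and 2.05 ± 0.257 in CePPy (SD, n = 3 per group; exact two-sided permutation p = 0.3). Irx3, of the other Iroquois cluster, measured between 45.1 and 56.0 CPM in all libraries (log2 change 0.04 ± 0.11 SE, edgeR adjusted p = 0.852). The ETS factor Ehf measured 26.8, 36.6 and 35.0 CPM in vehicle and 25.2, 41.8 and 48.0 in CePPy (log2 change 0.22 ± 0.23 SE, edgeR adjusted p = 0.626), with CePPy 1 lowest as for Elf5. Each of 9 relatives, among them Pax3, Pax4 and Pax7, had 0 counts in all 6 libraries.

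**Figure D5:**
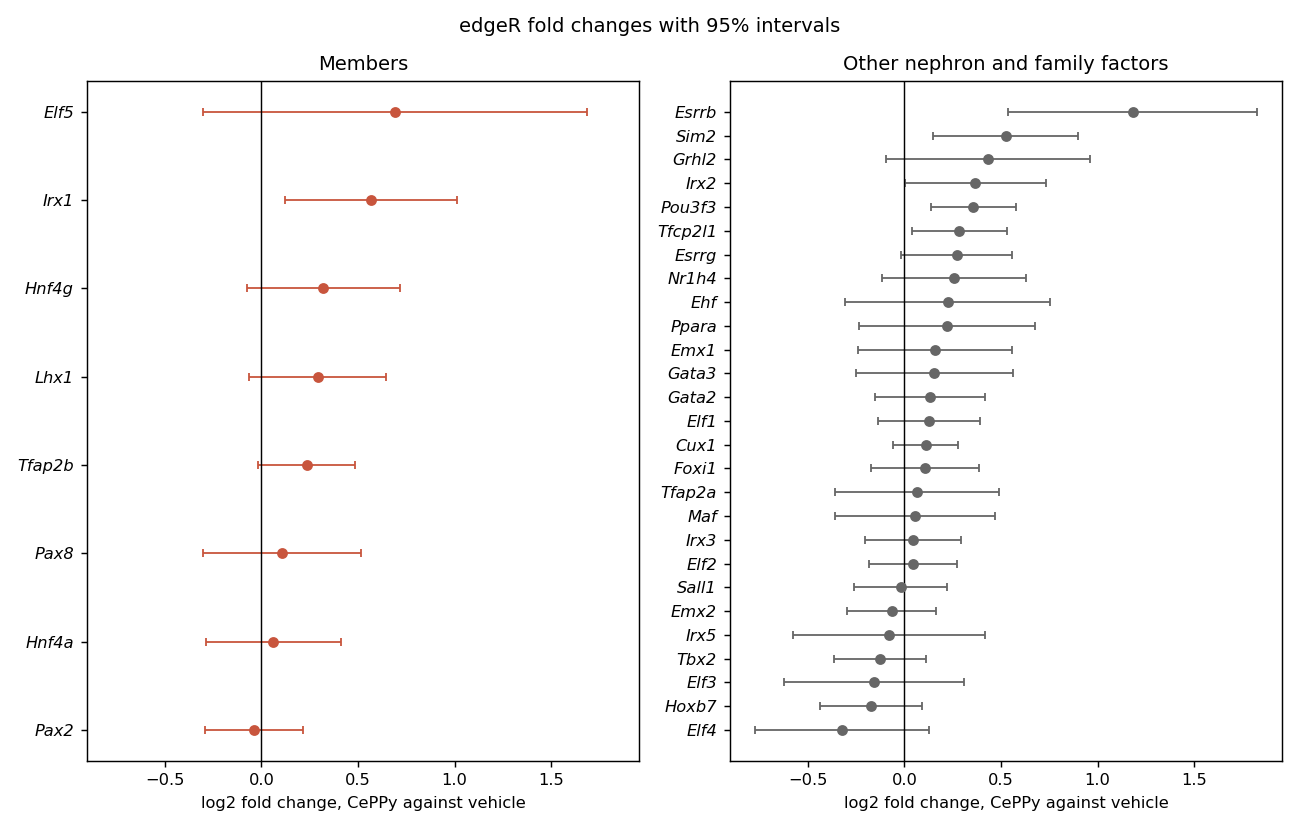
Log2 fold changes of CePPy against vehicle from edgeR, with 95% intervals, for the 8 members (left) and for other nephron factors and family relatives with a mean of at least 2 CPM (right). Irx1 is the only member whose unadjusted interval, 0.12 to 1.01, lies above 0.

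Of 16 partner proteins of the members, 13 had higher fitted values (median 0.19), and edgeR called 0. Ppargc1a, the coactivator PGC-1alpha that binds HNF4A, measured 23.2, 27.7 and 30.3 CPM in vehicle and 42.6, 32.4 and 44.3 in CePPy (log2 change 0.56 ± 0.15 SE, edgeR adjusted p = 0.131, DESeq2 adjusted p = 0.02). Ep300, an acetyltransferase coactivator, measured 45.4, 47.6 and 50.0 CPM in vehicle and 55.4, 54.2 and 56.8 in CePPy (log2 change 0.22 ± 0.07 SE, edgeR adjusted p = 0.178). Kctd1, whose protein binds and represses AP-2 factors, went the other way at 52.4, 58.3 and 54.2 CPM in vehicle and 34.6, 50.3 and 43.2 in CePPy (log2 change -0.36 ± 0.13 SE, edgeR adjusted p = 0.203). For these 3 genes, taken for their low p, the groups did not overlap. Over the 16, the CePPy libraries lay wholly above vehicle for 9 (12.3% of all genes tested) and wholly below for 1. Transcription factors of podocytes and nephron progenitors gave no common direction, with 5 of 10 tested genes at higher and 5 at lower values and a median of -0.02. The progenitor gene Six2 had counts in vehicle 2 alone, at 0.118 CPM.

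Genes whose levels followed those of a member most closely over the 6 libraries were found by Pearson's r of log2 CPM among 12164 annotated genes. With so many genes and 6 libraries that share the treatment groups, high values of r are common, so they are given as a description. Irx1 was followed most closely by the cytochrome P450 gene Cyp2a4 (r = 0.997), Ugt1a2 (0.993) and Ece1 (0.992). Ece1 was also among the 3 closest to Hnf4g (0.992), after Mgat2 (0.994) and Stk10 (0.993), and Irx1 and Hnf4g themselves gave an r of 0.986. Elf5 was followed by Sprr1a (0.988), Aqp4 (0.98) and Pik3c2b (0.978). The closest genes were Tnrc6b for Hnf4a (0.986), Trim41 for Pax2 (0.994) and Taf5 for Pax8 (0.98). They were Acad8 for Lhx1 (0.998) and Sptbn1 for Tfap2b (0.992).

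Markers of other cells were measured beside the members. Of 10 podocyte markers 7 had higher values (median 0.04), of 10 endothelial markers 4 (median -0.03), of 10 fibroblast and smooth muscle markers 5 (median 0.09) and of 10 leukocyte markers 5 (median -0.05). The fibroblast and smooth muscle list held changes in both directions. DESeq2 called 2 of its 10 lower and 1 higher, against 6.66% of all genes tested, and edgeR called 0. They were Tagln (log2 change -0.80 ± 0.11 SE), Acta2 (-0.79 ± 0.17 SE) and Dcn (0.89 ± 0.21 SE), each without overlap. The podocyte median was -0.05 without CePPy 1 and 0.12 without CePPy 3. The 10 intercalated cell markers all had higher values, with a median of 0.43, which was 0.27 without CePPy 1. Summed leukocyte markers ran from 136 to 140 CPM in vehicle and from 111 to 123 CPM in CePPy. Of these sums the neutrophil genes S100a8 and S100a9 made up 21.9 to 33.6 CPM in vehicle and 5.4 to 12.1 CPM in CePPy, and DESeq2 called both lower (edgeR adjusted p = 0.0813 and 0.0884). The other 8 leukocyte markers summed to 104.8 to 114.3 CPM in vehicle and 100.4 to 117.9 CPM in CePPy. Summed endothelial markers ran from 829.7 to 943 CPM in vehicle and from 828 to 871 CPM in CePPy. Of 15 tubular injury markers, 13 had lower values (median -0.56, and -0.32 without CePPy 1), and Sox9, a factor of tubule repair, measured 29.9, 30.3 and 32.5 CPM in vehicle and 8.02, 16.0 and 18.4 in CePPy (log2 change -1.13 ± 0.26 SE, edgeR adjusted p = 0.116). The part of these cells in the members' values was not tested.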

How the data were processed

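Libraries were made from TRIzol-extracted kidney RNA with a Yeasen dual-mode kit, per the labels' protocols. The values are whole-number read counts per gene that the authors deposited in 1 table without normalization. The submitters' processing notes name TopHat2, Cufflinks, DESeq and the build GRCm38. The counter, its use of strand and the annotation were not given in the sources. All 8 members were found in GENCODE M21, which gave coordinates and exon lengths.

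Genes with low counts were removed with filterByExpr, leaving 15416, and libraries were scaled by TMM (factors 0.95 to 1.03). Groups, from the sample titles, were compared with edgeR 4.0.16 (R 4.3.3), quasi-likelihood, with treatment as the only term, 4 residual degrees of freedom and Benjamini-Hochberg adjustment over all genes tested (threshold 0.05). DESeq2 1.42.0 and voom of limma 3.58.1 were alternatives. Log2 CPM used a prior count of 2. The edgeR step was tested on simulated counts with the same relative spread for every gene in both groups. That setting does not cover groups of unequal spread, as found here. No library repeated another: counts of replicates differed beyond sampling noise. Chi-square over degrees of freedom was between 19.7 and 28.2 for pairs of vehicle libraries and between 33.4 and 106 for pairs of CePPy libraries.

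The members and gene lists were chosen with earlier results of these data known, and so support nothing beyond their values. Named genes are the members, the 3 genes of lowest p in a list, tested relatives, and the 3 of highest r among genes of at least 2 CPM. Some lists are given only by counts, and other genes were named after their values were seen. Some genes of the lists are not reported here and were left out of the counts.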

Additional observations from a re-analysis of the deposited data

How the results depend on the processing

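Under each of the 12 alternatives 0 members were called, between 6 and 8 had higher values, and their median log2 fold change stayed between 0.23 and 0.34. Over all genes DESeq2 called 1026 (528 higher, 498 lower), edgeR without the filter on low counts 63 (26 higher, 37 lower), and edgeR with the replicate block 0 (0 lower), with 2 members at an unadjusted p under 0.05. With a library left out the calls ranged from 0 to 811 (0 to 467 higher, 0 to 344 lower), and members at an unadjusted p under 0.05 from 0 to 3. The fold changes of 3 members changed sign with a library left out: Hnf4a ranged from -0.062 to 0.21, Pax2 from -0.10 to 0.04 and Pax8 from -0.0503 to 0.29. The median of intercalated markers ranged from 0.27 to 0.49 that of other nephron factors from 0.105 to 0.196, and that of podocyte markers from -0.0507 to 0.12. The cause was not tested, except that these fits have fewer samples. Same-numbered libraries did not deviate together (r = -0.15, 0.098 and -0.021), so the numbers were not taken to pair the samples; CePPy 2 correlated best with its own number and CePPy 1 and 3 did not. With the longest transcript in place of all exons, the order of the members in vehicle did not change, Pax2 and Tfap2b changed places in CePPy, and in vehicle Pax8 stood at 31.9 and Elf5 at 1.05 CPM per kilobase. Elf5 had 72 to 239 and Hnf4g 147 to 235 counts a library, the lowest of the members.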
